A study of Mus musculus with 12 samples.

Results

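Kruppel-like factors are transcription factors that bind CACCC and GC-rich boxes in DNA through zinc fingers at the C-terminal end. The members examined here were Klf2, Klf3, Klf4, Klf5, Klf6, Klf7, Klf9, Klf10, Klf13 and Klf15. Every probe set that the platform annotation ties to exactly 1 of these genes was taken. The genes were chosen by name, with earlier results of these data known. They have 34 probe sets, out of 45037 on the array that are not controls, and are 10 of 18193 genes. A probe set is a group of short probes read together as 1 value. The suffix _a_at marks probe sets shared by transcripts of 1 gene, and _s_at and _x_at mark probe sets that can also pick up other sequences.

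The samples were keratinocytes from the skin of C57 DBA mice, parted by magnetic sorting (MACS) into cells with and without CD34, a surface glycoprotein that marks the bulge of the mouse hair follicle. Each of 3 isolations used a pool of at least 6 mice, and the RNA of each fraction was placed on 2 Affymetrix arrays, giving 6 CD34+ and 6 CD34- arrays. The study asks what sets the slow-cycling CD34+ cells apart from the other keratinocytes. Age and sex are not stated in the labels, no treatment or engineered allele is given for either fraction, and which arrays carry the same RNA is not given in the titles. Values are log2 expression from RMA, a method that corrects, normalizes and summarizes the probes of each probe set, so a difference of 1 is a 2-fold difference. Errors beside means are SDs over 6 arrays, which stand for 3 RNA samples, and p-values are too small wherever arrays of 1 RNA are alike. The number of arrays limits the precision.

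The family divides by partner proteins. Klf3, with Klf8 and Klf12, binds the corepressor CtBP and mainly represses. Klf2, Klf4, Klf5, Klf6 and Klf7 can recruit acetyltransferases such as p300 and often activate, though Klf4 also represses. Klf9, Klf10 and Klf13 bind the Sin3A corepressor, and Klf15 stands outside these branches. In skin, Klf4 is known for the formation of the epidermal barrier, Klf5 is expressed in the basal layer and in the hair follicle, and Klf9 is induced by glucocorticoids.

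Klf2 (1 of 1 probe sets) and Klf3 (2 of 7) were lower in CD34+ cells, Klf2 only narrowly by the test below, and Klf15 (1 of 1) was higher. Because members of the family bind CACCC and GC boxes and some of them regulate each other's genes, the upstream sequences of these 3 are shown. Each is the 250 bases just before the annotated RefSeq start in GRCm38.p6, 5′ to 3′ on the gene's strand, with capitals marking CACCC and GGGCGG on either strand (GGGTG and CCGCCC on the other). The windows are chr8:72318812-72319061 (+) for Klf2, chr5:64803271-64803520 (+) for Klf3 and chr6:90462326-90462575 (+) for Klf15.
Klf2: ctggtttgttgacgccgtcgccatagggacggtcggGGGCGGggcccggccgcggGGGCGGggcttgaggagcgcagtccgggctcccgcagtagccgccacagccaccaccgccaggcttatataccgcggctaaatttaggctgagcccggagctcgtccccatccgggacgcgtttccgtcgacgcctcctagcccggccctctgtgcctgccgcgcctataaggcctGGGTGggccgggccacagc
Klf3: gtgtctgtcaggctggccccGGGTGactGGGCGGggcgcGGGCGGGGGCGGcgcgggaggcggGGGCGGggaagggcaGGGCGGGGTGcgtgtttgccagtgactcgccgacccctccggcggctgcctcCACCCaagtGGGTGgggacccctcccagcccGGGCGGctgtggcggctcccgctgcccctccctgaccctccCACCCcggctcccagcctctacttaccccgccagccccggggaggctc
Klf15: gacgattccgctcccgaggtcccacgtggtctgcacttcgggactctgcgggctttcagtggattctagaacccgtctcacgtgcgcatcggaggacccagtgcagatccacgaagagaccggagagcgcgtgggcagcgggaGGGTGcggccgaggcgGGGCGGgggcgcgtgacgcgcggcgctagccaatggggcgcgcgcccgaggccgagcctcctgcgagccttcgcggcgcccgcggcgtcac
In the Klf3 window CACCC was found 5 times and GGGCGG 6 times, with matches that touch or overlap. The Klf2 window held 1 and 2 matches, and the Klf15 window 1 of each. Among all 32851 promoters of the same length, 52.0% held CACCC and 32.7% held GGGCGG at least once, and GC content was 78.4% for Klf3, 71.2% for Klf2 and 72.0% for Klf15 against a median of 52.4%. The table held 8 of the 10 members, and Klf5 and Klf10 were not among them. The shown windows all hold both motifs. So do those of Klf7, with 3 matches to CACCC and 1 to GGGCGG, and Klf13, with 1 and 3. Klf4 and Klf6, with lower calls as well, had 0 matches to CACCC and 4 and 1 to GGGCGG, and Klf9 had 1 and 0. These matches describe the sequence and were not tested for binding.

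Most Kruppel-like factors that differed were lower in the CD34+ fraction, as were 64.6% of all probe sets that differed. Of the 34 probe sets, 10 were lower and 2 higher in CD34+ cells, and 22 did not pass (limma, Benjamini-Hochberg adjusted p under 0.05 over all probe sets). The lower calls were 29.4% of the members' probe sets, where 13.9% of all probe sets were lower, and the higher calls were 5.88% against 7.64%, with 21.5% of all probe sets called in either direction. The median log2 fold change was -0.39 over the members' probe sets and 0.064 over all probe sets. The calls fell in 8 genes: Klf2, Klf3, Klf4, Klf5, Klf6 and Klf9 had lower probe sets, Klf13 and Klf15 had 1 higher probe set each, and Klf7 and Klf10 had none. These counts take several probe sets of 1 gene singly. By the brightest probe set of each gene, 4 of the 10 members were lower (Klf2, Klf4, Klf5 and Klf6) and 1 higher (Klf15). Over all genes 17.5% were lower and 7.73% higher by that measure. On 4 probe sets the 6 arrays of one fraction did not overlap those of the other, 3 lower (Klf5 and, with 2 probe sets, Klf3) and 1 higher (Klf15), where 6.86% and 4% of all probe sets were so separated, 10.9% in all.

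Several facts of the arrays bear on all of these values. For Actb, the 3' control probe set minus the 5' one, a measure of RNA integrity and labelling, was 3.95 to 5.65 on CD34+ and 1.82 to 3.24 on CD34- arrays (exact permutation test over 924 splits, two-sided, p = 0.00216, the smallest it can give), and its part in the results was not tested. CD34+ arrays 1, 3 and 5 had an SD over probe sets of 2.07, 1.92 and 2.02, against 2.19 to 2.32 on the other 9. Of all called probe sets 64.6% were lower, a share that was 58.3% after a further quantile normalization and 78.9% with each array centred on its median. Centring moved the median over all probe sets from 0.064 to -0.038, and the members' median from -0.39 to -0.49. Without CD34+ arrays 1, 3 and 5, 8.22% of all probe sets were lower and 7.36% higher. The members then had 3 lower probe sets (2 of Klf3 and 1 of Klf5) and 2 higher ones (Klf15 and Klf7), so that 8 of the 12 calls were lost. After a further quantile normalization 12% of all probe sets were lower and 8.61% higher, and with median centring 16.6% and 4.41%. With means of arrays 1-2, 3-4 and 5-6 these shares were 14.7% and 8.76%, and with the array number as a replicate block 15.1% and 7.59%. The members had 5 lower and 3 higher probe sets, 10 and 1, 11 and 2, and 13 and 2 in these 4 fits, in the same order. The titles do not say that the averaged arrays share an RNA, so a call on those means cannot be read as one over RNA samples. Each CD34+ mean joined 1 of arrays 1, 3 and 5 with an array of wider spread.

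Marker lists were used to check the labelled cells. Cd34, on whose product the cells were sorted, was 6.92 higher on the log2 scale in CD34+ arrays (limma adjusted p = 3.59e-09). The sort itself sets this difference, so it is no independent check. Counting Cd34, 9 of 10 hair follicle bulge genes were higher, and the bulge keratin Krt15 did not pass (-0.29, limma adjusted p = 0.109). Krt5, a keratin of basal keratinocytes, read 12.17 ± 0.44 (SD, 6 CD34+ arrays) and 13.20 ± 0.23 (SD, 6 CD34- arrays), and 5 of 7 keratinocyte genes were lower in CD34+ cells. Genes of other cell types were measured too. All 9 measured T cell genes were lower in CD34+ cells, with list means of 5.14 to 6.12 on CD34+ and 6.86 to 7.78 on CD34- arrays. Langerhans and myeloid genes had 5 lower of 10 (5.59 to 5.84 against 6.02 to 6.67). Dermal fibroblast genes had 5 higher of 8 (5.52 to 7.07 against 4.23 to 5.24). Endothelial genes, with 1 higher of 8, averaged 3.70 to 3.97 and 3.49 to 3.61, and 2 of the 8 read within the range of the Trpn control probe sets, a bacterial sequence that reads 2.31 to 2.95. Smooth muscle had 1 higher of 5, melanocyte genes 2 higher and 1 lower of 7, and 3 measured adipocyte genes had no call. Over 1 probe set per gene, 7.73% of all genes were higher and 17.5% lower, 25.2% in all. In sorted bulk samples, fewer cells of a type and less RNA per cell cannot be told apart.

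Klf5, an activator expressed in dividing basal epithelium, had the largest difference of the 10 genes with all arrays as deposited. Klf3 1421604_a_at stood close at -1.99, and without CD34+ arrays 1, 3 and 5 it differed more than Klf5 (-1.75 against -1.63). Klf5 probe set 1451021_a_at read 8.15 to 10.54 with a median of 8.61 on the CD34+ arrays, and 10.73 to 11.10 with a median of 11.03 on the CD34- arrays. The fractions did not overlap, and 5 of the CD34+ arrays lay at or below 8.91 while CD34+ array 4 stood at 10.54. The level was 4.18-fold lower in CD34+ cells (log2 fold change -2.06, SE 0.31, limma adjusted p = 0.000453). It was -2.39 without CD34+ array 4 and -1.63 without CD34+ arrays 1, 3 and 5 (limma adjusted p = 0.00999), and it did not pass on the even-numbered arrays alone (-1.73, limma adjusted p = 0.0898).

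A further Klf5 probe set, 1451739_at, varied more between array numbers than between fractions. CD34+ arrays 1 to 6 read 5.68, 5.53, 7.64, 8.78, 8.02 and 8.64. CD34- arrays 1 to 6 read 6.96, 6.83, 9.17, 9.68, 9.44 and 8.75. Arrays 1 and 2 of both fractions were lowest, by 1.96 below the next CD34+ array and by 1.79 below the next CD34- array, and at every number the CD34+ array was the lower of the pair. Only 5 of the 45037 probe sets had arrays 1 and 2 lower than all others by 1 or more in both fractions, a count made after the values were seen, and 0 had them higher by as much. The named ones besides Klf5 were those of Aldh1a7 and Satb1. The difference of -1.09 (SE 0.68, 95% interval -2.55 to 0.37) did not pass (limma adjusted p = 0.257). It passed with the array number as a replicate block (limma adjusted p = 0.00276), although the titles do not say that the numbers pair the arrays. On 1451021_a_at arrays 1 and 2 were not apart from the rest in that way. The remaining Klf5 probe set, 1430255_at, read 2.72 to 3.31 over all arrays, close to the Trpn range, with a difference of 0.05 (95% interval -0.21 to 0.32).

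**Figure D1:**
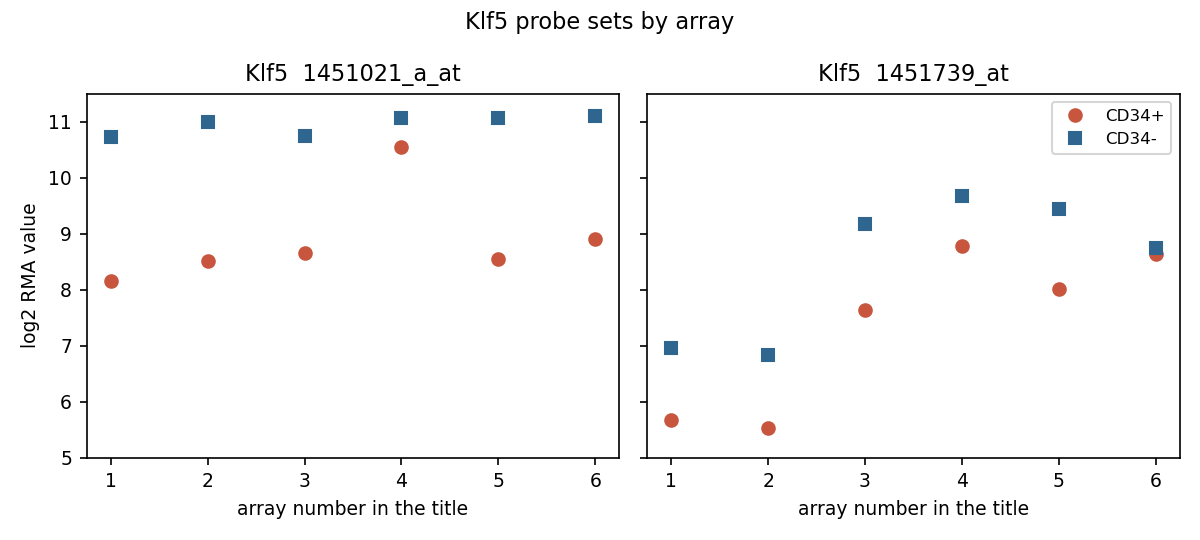
Log2 RMA value (vertical axis) of Klf5 probe sets 1451021_a_at and 1451739_at by the array number in the title (horizontal axis), with CD34+ arrays as circles and CD34- arrays as squares. On 1451021_a_at the CD34+ arrays sit between 8.15 and 10.54 and the CD34- arrays above 10.7, while on 1451739_at arrays 1 and 2 of both fractions lie below 7 and all others at 7.64 or above.

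Klf2, a factor of endothelium and resting T cells that also responds rapidly to stimuli, was 2.10-fold lower in CD34+ cells by its 1 probe set, close to the threshold. The CD34+ arrays read 4.58 to 6.21 with a median of 5.45, and the CD34- arrays 5.52 to 7.52 with a median of 6.08. The fractions overlapped, and CD34- arrays 1 and 2 (7.52 and 7.43) stood above the other 4, which read 5.52 to 6.14. The difference of -1.07 on the log2 scale (SE 0.36) passed with a limma adjusted p of 0.0497, and the call was lost on leaving out any single array other than CD34+ array 2 and CD34- array 3 (limma adjusted p up to 0.108). It was also lost with means of arrays 1-2, 3-4 and 5-6 (limma adjusted p = 0.124), after a further quantile normalization (limma adjusted p = 0.0736) and without CD34+ arrays 1, 3 and 5 (-0.73, limma adjusted p = 0.329). T cell genes and immediate early genes were lower in the same fraction. The immediate early genes averaged 10.81 and 10.57 on CD34- arrays 1 and 2 against 9.81 to 10.16 on the other CD34- arrays. Their part in the Klf2 difference was not tested.

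Of genes taken as targets of Klf2 in lymphocytes and endothelium, 1 of 5 was lower, the integrin chain Itgb7 (-1.11, limma adjusted p = 0.000139), and S1pr1, the receptor that guides lymphocyte exit, stood at 0.18 (limma adjusted p = 0.640). The list's median was 0.10, against 0.040 over 1 probe set per gene. Itgb7 is also carried by T cells of the skin, whose markers moved the same way, and their part in the Itgb7 difference was not tested.

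Klf4, the barrier factor, differed little and passed on 1 of 2 probe sets. On 1417394_at the CD34+ arrays read 11.64 to 12.42 (median 12.13) and the CD34- arrays 12.27 to 12.78 (median 12.54), which overlapped. The difference was -0.45 (SE 0.13, limma adjusted p = 0.0312). It did not pass without CD34+ array 1 or 5, or without CD34- array 1, 3, 4, 5 or 6 (limma adjusted p up to 0.0702), nor without CD34+ arrays 1, 3 and 5 (-0.22, limma adjusted p = 0.251) or after a further quantile normalization (-0.29, limma adjusted p = 0.0576). On 1417395_at the difference was -0.58 (limma adjusted p = 0.138), with CD34+ array 4 highest of all arrays at 11.72, and it was -0.81 without that array (limma adjusted p = 0.0100). It was -0.03 without CD34+ arrays 1, 3 and 5 (limma adjusted p = 0.962), and on the even-numbered arrays -0.05. Of 12 epidermal barrier genes, taken because Klf4 is known to act on the barrier, 3 were lower and 0 higher, with a median of -0.18: the envelope precursor Sprr1a (-1.24), the cell cycle inhibitor Cdkn1a (-0.76) and the tight junction protein Cldn1 (-0.65). Without CD34+ arrays 1, 3 and 5 none of the 12 passed with limma, and the median was -0.04.

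Klf6, an activator induced by stress and injury, was lower on 3 of 5 probe sets. Probe set 1418280_at read 5.86 to 6.49 (median 6.03) on CD34+ and 6.17 to 7.62 (median 7.12) on CD34- arrays. Only CD34- array 3 (6.17) lay within the CD34+ range. The difference was -0.86 (SE 0.23, limma adjusted p = 0.0154) and the call held on leaving out each array in turn, but not without CD34+ arrays 1, 3 and 5 (-0.68, limma adjusted p = 0.158). On 1447448_s_at the CD34+ arrays read 8.46 to 9.89 and the CD34- arrays 9.60 to 10.88, a difference of -0.87 (limma adjusted p = 0.0245) that was lost without CD34- array 1, 2 or 6 and with means of arrays 1-2, 3-4 and 5-6 (limma adjusted p = 0.0731). On 1433508_at, at 8.57 to 9.68 against 9.35 to 10.28, the difference was -0.65 (limma adjusted p = 0.0406). That call was lost without any one of CD34+ arrays 1, 3 and 5 or CD34- arrays 1, 2, 3 and 6, and with the means of arrays (limma adjusted p = 0.0510). After a further quantile normalization neither 1447448_s_at (-0.60, limma adjusted p = 0.113) nor 1433508_at (-0.36, limma adjusted p = 0.199) passed, and without CD34+ arrays 1, 3 and 5 they stood at -0.67 and -0.33 and did not pass either. The other Klf6 probe sets, 1427742_a_at (-0.38) and 1459718_x_at (-0.40), did not pass, though 1427742_a_at did without CD34+ array 4 (-0.53, limma adjusted p = 0.0284). These stood at -0.32 and -0.17 without CD34+ arrays 1, 3 and 5. CD34- array 1 was highest of its fraction on 4 of the 5.

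Klf7, best known in neurons, had no call with all arrays. Its 4 probe sets stood at 0.09 to 0.56. Without CD34+ arrays 1, 3 and 5, 1419355_at turned from 0.19 to -0.17, and without CD34+ array 4, 1419356_at turned from 0.09 to -0.05. The largest, 1449439_at, read 5.41 to 7.16 (median 6.55) on CD34+ and 5.56 to 6.20 (median 5.86) on CD34- arrays. All CD34+ arrays but array 3 read 6.37 or more, above every CD34- array, and array 3 was the lowest of all 12. With all arrays it did not pass (0.56, SE 0.23, 95% interval 0.06 to 1.06, limma adjusted p = 0.0991). It passed without CD34+ array 3 (0.78, limma adjusted p = 0.00352), without CD34+ arrays 1, 3 and 5 (0.85, limma adjusted p = 0.00881) and after a further quantile normalization (0.70, limma adjusted p = 0.0351), where 1419354_at passed as well (0.37, limma adjusted p = 0.0359).

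Klf3, the CtBP-dependent repressor, had 7 probe sets that did not change alike. On 1421604_a_at the CD34+ arrays read 4.35 to 5.45 (median 4.61) and the CD34- arrays 6.18 to 7.44 (median 6.69). The fractions were apart by more than their spread, with a 3.97-fold lower level in CD34+ cells (log2 fold change -1.99, SE 0.22, limma adjusted p = 4.65e-05). On 1429360_at the CD34+ arrays read 7.13 to 8.53 (median 7.56) and the CD34- arrays 8.68 to 9.19 (median 8.92), again without overlap and with CD34+ array 4 nearest to the other fraction. That difference was -1.33 (SE 0.20, limma adjusted p = 0.000435). Both calls held on leaving out each array in turn and without CD34+ arrays 1, 3 and 5 (-1.75, limma adjusted p = 0.00155, and -0.99, limma adjusted p = 0.00585). On the even-numbered arrays alone 1421604_a_at passed (limma adjusted p = 0.0208) and 1429360_at did not (limma adjusted p = 0.0595).

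The other 5 probe sets of Klf3 did not pass. The brightest, 1454666_at, read 9.86 to 10.77 on CD34+ and 10.51 to 10.98 on CD34- arrays, a difference of -0.37 (95% interval -0.73 to -0.01, limma adjusted p = 0.126), and it passed with means of arrays 1-2, 3-4 and 5-6 (limma adjusted p = 0.0441). The differences of 1431630_a_at (-0.40), 1442920_at (-0.37), 1441200_at (0.15) and 1458487_at (0.06) had 95% intervals that reached from -0.88 at the lowest to 0.47 at the highest, and 1442920_at passed without CD34+ array 4 (-0.53, limma adjusted p = 0.0353). On leaving out CD34+ arrays 1, 3 and 5, 1454666_at stood at -0.02 (limma adjusted p = 0.927) and 1442920_at turned to 0.06 (limma adjusted p = 0.859).

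The unequal change within genes was tested directly by comparing, array by array, each further probe set of a gene with its brightest one, in 24 comparisons over the 7 genes with several probe sets. In Klf3, 1421604_a_at fell further than 1454666_at by 1.62 on the log2 scale and 1429360_at by 0.96 (difference of fold changes -1.62 and -0.96, two-sided exact permutation tests, p = 0.00216 each, adjusted p = 0.0173). Klf6 1459718_x_at against 1447448_s_at passed as well (0.47, exact permutation adjusted p = 0.0173). The only other one of the 24 to pass was Klf5 1430255_at against 1451021_a_at, which is not read as unequal change because 1430255_at lies so near the Trpn range that a fall could not be seen. The annotation does not say which transcripts each probe set reads, and where along them each lies was not examined. The 3' minus 5' gap differed between CD34+ and CD34- arrays for Actb (3.95 to 5.65 and 1.82 to 3.24). For Gapdh it was 3.66 to 4.63 and 3.10 to 3.57. Its part in these comparisons was not tested.

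**Figure D2:**
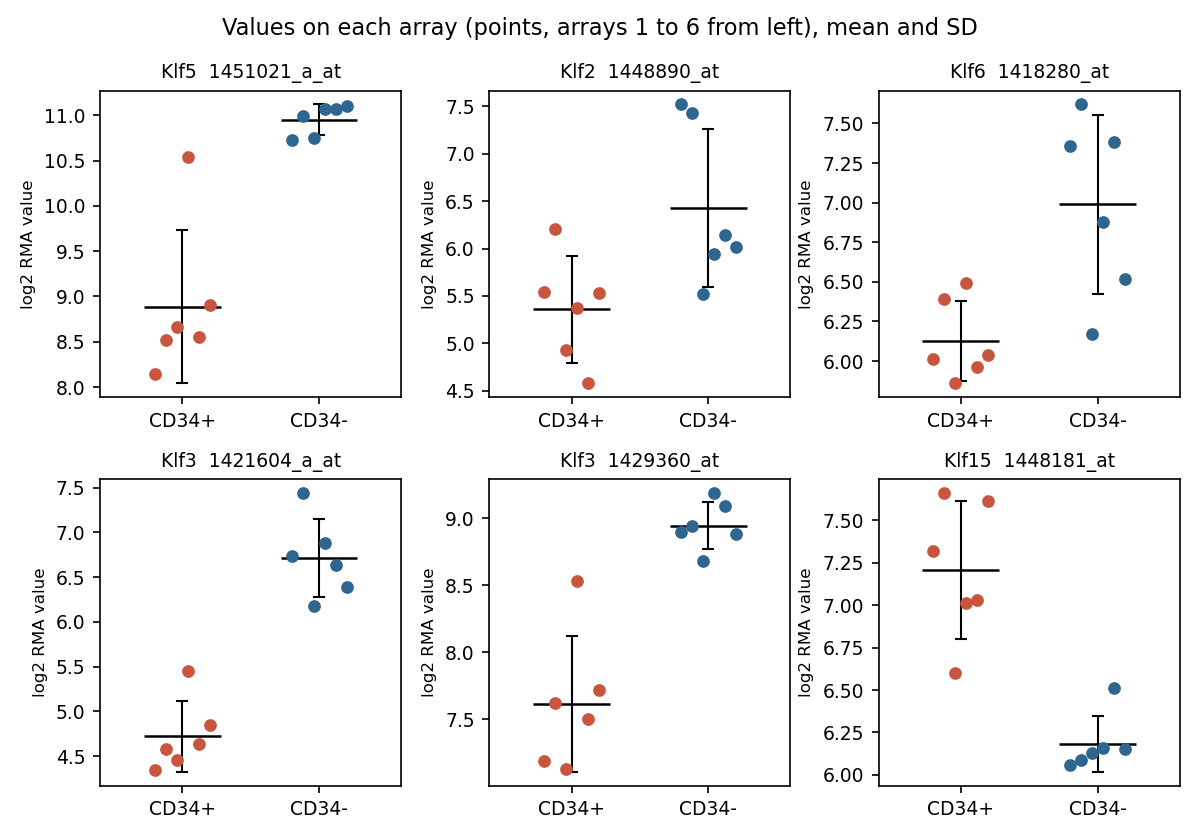
Log2 RMA values (vertical axes, each panel on its own scale) of 6 probe sets on the CD34+ and CD34- arrays, with points for arrays 1 to 6 from left to right and the mean with its SD in black. The fractions are apart for Klf5 1451021_a_at, both Klf3 probe sets and Klf15, and overlap for Klf2 and Klf6.

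Among the members that bind Sin3A, Klf9, which is known to respond to glucocorticoids and the clock in epidermis, was slightly lower on 2 of 7 probe sets. On 1428289_at the CD34+ arrays read 10.14 to 10.78 (median 10.49) and the CD34- arrays 10.77 to 10.97 (median 10.88). They overlapped by CD34+ array 4 alone, and the difference was -0.36 (SE 0.11, limma adjusted p = 0.0281). The call was lost after a further quantile normalization (-0.10, limma adjusted p = 0.529), with trend and robust settings (limma adjusted p = 0.0674), and without CD34+ array 1 or 5 or CD34- array 1, 3 or 6. On 1436763_a_at, at 3.65 to 4.75 against 4.23 to 5.08, the difference was -0.65 (limma adjusted p = 0.0253), and it was lost without CD34+ array 1, 3 or 5 or CD34- array 2 or 5. Neither probe set passed with CD34+ arrays 1, 3 and 5 all left out (-0.21, limma adjusted p = 0.170, and -0.40, limma adjusted p = 0.269). The brightest, 1456341_a_at, read 10.80 to 11.41 and 11.03 to 11.34, with a difference of -0.18 (95% interval -0.41 to 0.05). Of the remaining 4, 1428288_at stood at -0.21, 1452723_at at -0.07, 1436952_at at 0.01 and 1422264_s_at at -0.59, the last of which passed without CD34+ array 4 (-0.82, limma adjusted p = 0.0117) and with means of arrays 1-2, 3-4 and 5-6 (limma adjusted p = 0.0322). The same probe set stood at 0.00 without CD34+ arrays 1, 3 and 5 (limma adjusted p = 0.995), and on the even-numbered arrays at -0.14.

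Klf10, a target of TGF-beta signalling, has 1 probe set. It read 6.23 to 7.71 (median 7.26) on CD34+ and 7.41 to 8.04 (median 7.74) on CD34- arrays. The fractions overlapped, and the difference of -0.57 (SE 0.21, 95% interval -1.03 to -0.11) did not pass (limma adjusted p = 0.0723). It passed without CD34+ array 2 (-0.68, limma adjusted p = 0.0313) and with the replicate block (limma adjusted p = 0.0223).

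Klf13, known in lymphocytes and heart, gave estimates of both signs. Its brightest probe set, 1436316_at, read 7.89 to 9.80 on CD34+ and 8.74 to 9.72 on CD34- arrays, with a difference of -0.41 (limma adjusted p = 0.386). On 1432543_a_at, at 5.79 to 7.77 against 7.26 to 8.33, the difference of -0.82 (SE 0.28) narrowly missed (limma adjusted p = 0.0558). It passed under several alternatives, among them means of arrays 1-2, 3-4 and 5-6 (limma adjusted p = 0.00373) and leaving out CD34+ array 4 or 6. The titles do not say that the averaged arrays share an RNA. The difference of 1432543_a_at was -0.34 without CD34+ arrays 1, 3 and 5 (limma adjusted p = 0.440), and 1436316_at turned to 0.29 (limma adjusted p = 0.536). The dim probe set 1456030_at was higher in CD34+ cells, at 4.17 to 4.82 against 3.88 to 4.22 (0.41, SE 0.12, limma adjusted p = 0.0226). This call was lost without CD34- array 4 (limma adjusted p = 0.0513), after a further quantile normalization (limma adjusted p = 0.0504), with median centring (limma adjusted p = 0.0540) and without CD34+ arrays 1, 3 and 5 (0.26, limma adjusted p = 0.153). Against the brightest probe set the unequal change of 1456030_at was 0.82 (exact permutation adjusted p = 0.234).

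Klf15, a glucocorticoid-induced regulator of amino acid and glucose metabolism, rose in CD34+ cells. The CD34+ arrays read 6.60 to 7.66 (median 7.18) and the CD34- arrays 6.06 to 6.51 (median 6.14), without overlap. The CD34- arrays other than array 5 lay between 6.06 and 6.16, and array 5 at 6.51, next to CD34+ array 3 at 6.60. The level was 2.03-fold higher (log2 fold change 1.02, SE 0.17, limma adjusted p = 0.000789). The call held under every alternative that was run, with estimates of 0.92 to 1.29, and was 1.24 without CD34+ arrays 1, 3 and 5 (limma adjusted p = 0.000516).

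Klf9 and Klf15 are both known to be induced through the glucocorticoid receptor, and here Klf15 was higher while the 2 Klf9 probe sets that passed were lower. Both Klf9 calls were lost without CD34+ arrays 1, 3 and 5, and the brightest Klf9 probe set did not pass with all arrays. Of 7 genes of the receptor and its targets, 4 were lower and 0 higher in CD34+ cells, with a median of -0.84. Tsc22d3, which encodes the glucocorticoid-induced leucine zipper, fell by 2.29 (log2 fold change -2.29, limma adjusted p = 0.000640). Hsd11b1, the enzyme that regenerates active glucocorticoid, stood at -0.85 and the receptor cochaperone gene Fkbp5 at -0.84. Without CD34+ arrays 1, 3 and 5, 2 of the 7 were lower, as after a further quantile normalization.

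Within the CD34+ fraction, arrays 3 and 4 were often at the ends of the range. CD34+ array 4 was the highest of its fraction on 17 of the 34 probe sets and CD34+ array 3 the lowest on 18 and highest on 4, where array 4 was highest on 21.5% and array 3 lowest on 26% and highest on 32.4% of all probe sets. Several of these probe sets belong to the same gene. T cell genes (6.12) and keratinocyte genes (11.46) were also at their highest of the fraction on array 4, and dermal fibroblast genes (5.52) at their lowest, while array 3 had the lowest keratinocyte (10.85) and hair follicle bulge (8.53) values. The part of these in the members' values was not tested. The 12 arrays share isolations and RNA, so correlations across them are descriptions. The genes whose brightest probe sets were most like that of Klf5 over the 12 arrays were Lcp1 (Pearson r 0.986), Ly6d (0.981) and Tubb4b (0.981), with r of 0.960 to 0.983 within CD34+ and 0.481 to 0.761 within CD34- arrays. Those most like Klf2 were Btg2 (0.947), Nr4a1 (0.938) and Ldlrad4 (0.938), with 0.758 to 0.921 within CD34+ and 0.885 to 0.968 within CD34- arrays. Lcp1 encodes an actin-bundling protein of leukocytes, Ly6d a surface protein of keratinocytes and lymphocytes, and Btg2 and Nr4a1 are immediate early genes.

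Other genes of the family were measured too. Of 13 measured genes among the other KLF and SP factors, by their brightest probe sets, 1 was higher and 2 were lower, with a median of 0.01. Klf12, which binds CtBP like Klf3, was lower (-0.54, limma adjusted p = 0.0133), also on 1439847_s_at (-0.79, limma adjusted p = 0.000136) and 1439846_at (-0.61, limma adjusted p = 0.00436), while its 2 dimmest probe sets stood at 0.27 and 0.11. Sp3 was lower (-0.67, limma adjusted p = 0.0304) and Sp4 higher (0.72, limma adjusted p = 0.00828), with a further Sp4 probe set at 0.44 (limma adjusted p = 0.244). Without CD34+ arrays 1, 3 and 5 neither fall passed on the brightest probe sets.

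Partner proteins and regulators moved in both directions. Of 14 cofactors and ubiquitin ligases, 3 were higher and 5 lower, with a median of -0.17. Ctbp2, one of the CtBP corepressors through which Klf3 acts, rose by 1.11 (limma adjusted p = 0.00165), and Ctbp1 stood at -0.18 (limma adjusted p = 0.572). Wwp1, a ubiquitin ligase, rose by 0.89 (limma adjusted p = 0.00206). Fbxw7, the other ubiquitin ligase of the list, fell (-0.69, limma adjusted p = 0.000516). So did the Sin3 scaffolds Sin3b (-0.72, limma adjusted p = 0.0102) and Sin3a (-0.68, limma adjusted p = 0.0207). The 5 lower cofactors became 1 without CD34+ arrays 1, 3 and 5 and 3 after a further quantile normalization, where 5 were higher.

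Upstream of the family, the kinase ERK5 and MEF2 factors are known to drive Klf2 and Klf4 in endothelium. Of 5 such genes 2 were lower, Mef2a (-1.23, limma adjusted p = 0.000956) and the ERK5 activator Map2k5 (-0.80, limma adjusted p = 0.00324), with a median of -0.06. Mapk7, the gene of ERK5 itself, stood at -0.05, Mef2d at -0.06 and Mef2c at 0.28, and none of these passed. Of 9 genes of the TGF-beta signal, which induces Klf10, 3 were lower and 1 higher, with a median of 0.10: the receptor Tgfbr2 (-1.16), and the signal transducers Smad2 (-0.87) and Smad3 (-0.66). Immediate early genes, the class of rapidly induced genes to which Klf2, Klf4, Klf6 and Klf10 are often counted, had 9 lower and 0 higher of 11, with a median of -1.23. Junb (-1.96), Fosb (-1.82) and Ier2 (-1.68) were lowest among them. Without CD34+ arrays 1, 3 and 5, 5 of the 11 were lower, with a median of -1.09.

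**Figure D3:**
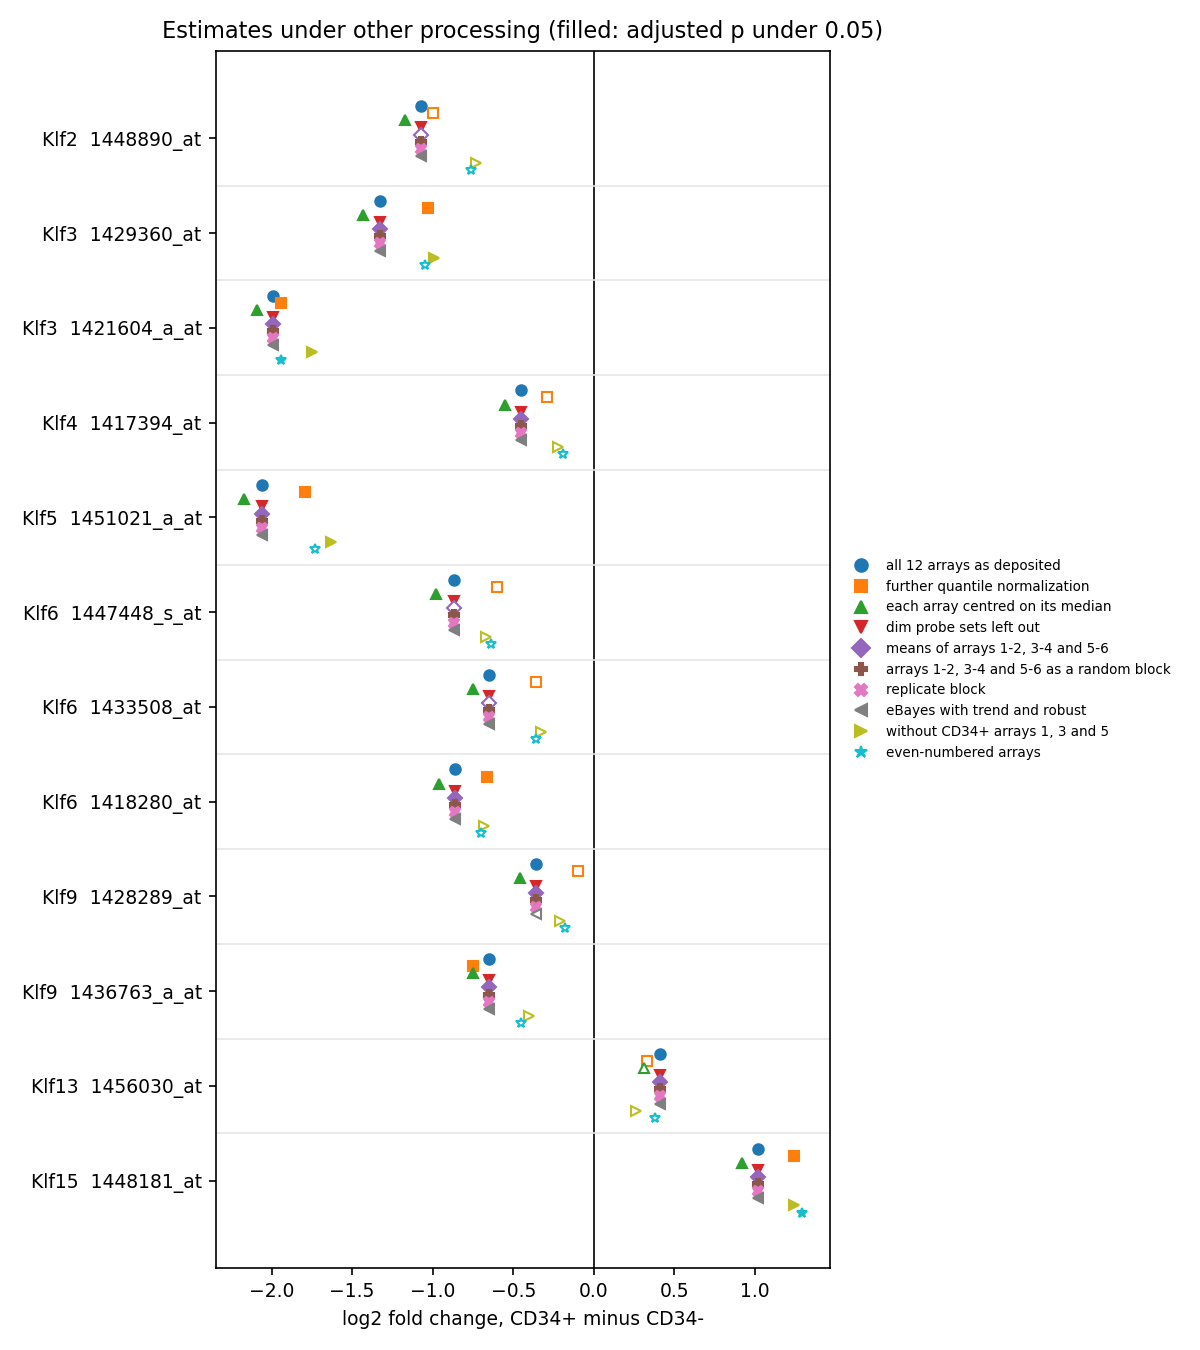
Log2 fold change (horizontal axis) of the 12 called probe sets under the main processing and 9 alternatives, 1 symbol each, filled where the limma adjusted p was under 0.05. Klf15 and Klf3 1421604_a_at stay filled throughout, Klf5 and Klf3 1429360_at are open only on the even-numbered arrays, and each of the other 8 is open in at least 2 alternatives.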

How the data were processed

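The deposited table holds 1 log2 value per probe set and array. Per the submitters' processing notes, the authors made these log2 values with RMA, whose version is not given in the sources used here, nor is whether all 12 arrays were normalized together. Of 45101 probe sets, 64 controls were set aside. GEO's platform annotation tied 34945 of the remaining 45037 to 1 gene, 932 to several and left 9160 unnamed here. The 6 CD34+ and 6 CD34- arrays were compared by two-sided moderated tests without a block (limma 3.58.1, R 4.3.3), with Benjamini-Hochberg adjustment over all 45037. The fit was tested on simulated data.

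Gene lists use the probe set with the highest mean per gene and are described by counts and medians. Every member probe set is named, with up to 3 called genes of each pathway list by size of change. Named after their values were seen were Ctbp1, Fbxw7, Krt15, Mapk7, Mef2c, Mef2d, S1pr1, Sin3a and further probe sets of Klf12 and Sp4. The members and lists were chosen with earlier results of these data known, and the comparisons between probe sets of 1 gene were added after the data were seen. RMA gives no detection call. All 34 member probe sets had means above the highest Trpn control value (2.95). Array numbers were not taken as pairs: deviations of same-numbered arrays from their fraction means correlated at -0.236 to 0.490. Promoters are from RefSeq (GRCm38.p6).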

Additional observations from a re-analysis of the deposited data

Results flagged for a closer look

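In 4 of 68 groups of 6 arrays (34 probe sets in each fraction), 1 array stood far from the others by Dixon's test, which chance alone flags in about 1 of 20 groups. CD34+ array 4 was the highest on Klf5 1451021_a_at (10.54, next 8.91) and on Klf6 1427742_a_at (7.33, next 6.67). CD34- array 5 was the highest on Klf15 1448181_at (6.51, next 6.16), and CD34- array 1 on Klf3 1458487_at (4.27, next 3.90).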

How the results depend on the processing

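Of the 12 called member probe sets, 5 kept their call on leaving out each array in turn, 4 in each of 20 fits other than that on the even-numbered arrays, and 2 in all 21. No estimate of a called probe set changed sign. The 10 lower calls became 5 after a further quantile normalization, 3 without CD34+ arrays 1, 3 and 5, and 1 on the even-numbered arrays. The 2 higher calls became 1 with median centring and 1 on the even-numbered arrays. The cause was not tested. Fewer arrays entered the fits without CD34+ arrays 1, 3 and 5 and on the even-numbered arrays, where 7018 and 2348 of all probe sets passed against 9704. Leaving out 1 array gave 5 to 14 lower and 1 to 3 higher member calls, and 7439 to 12318 over all probe sets. The lower calls were 5 without CD34+ array 1 or 5 or CD34- array 1 or 6, 6 without CD34- array 2, and the higher calls 1 without CD34- array 4. With the array number as a replicate block, 13 member probe sets were lower and 2 higher, including all 12, and 10209 of all probe sets passed. With means of arrays 1-2, 3-4 and 5-6, 11 were lower and 2 higher, with 9 of the 12 among them. The consensus correlation of arrays so paired was -0.136.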
